A study of Mus musculus with 3 samples.

Results

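The genes described here are 10 of the 55471 features of a mouse RNA-seq table: the ligands and receptors of the TAM family (Gas6, Pros1, Axl, Mertk, Tyro3), 4 genes of platelet-derived growth factor (PDGF) signalling (Pdgfa, Pdgfb, Pdgfra, Pdgfrb) and the neurotrophin receptor gene Ngfr. They were found by gene symbol, and each symbol stood in a single row. They were chosen by name with earlier results of the same table known, among them the low values of Ngfr and Gas6 in lung-selected cells. Their values are therefore given as a description.

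RNA was sequenced from 3 populations of the JC line, a mouse mammary carcinoma labelled epithelial-like, each grown in culture and each with the genotype label WT. The treatment label of JC-WT is WT as well. JC-P came, per the labels' protocols, from tumours of the mammary fat pad isolated 14 days after injection. JC-M3 descends from JC-P: cells were injected into the tail vein and recovered from the lungs at day 28, and this was done in 3 rounds. The treatment label is metastasis for JC-P and for JC-M3, so the fat pad origin of JC-P rests on the protocol alone. How many animals or tumours went into JC-P or JC-M3 is not given in the sources used here, and all of them grew in the same medium before RNA was taken.

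There was 1 library per population, so no difference has a replicate check, none was tested for significance, and each ratio describes a pair of libraries. Levels are in TPM, read counts scaled by gene length and to the same total in each library, so that genes can be compared. Where 3 values follow each other, the order is JC-WT, then JC-P, then JC-M3. Reads per gene could be recovered as whole numbers from the deposited TPM, and summed to between 17707519 and 22807660 per library. The intervals given are 95% exact intervals made from those reads and cover counting error only. Of the labelled epithelial-like state, 2 of 10 epithelial markers had a mean of at least 1 TPM: Krt8 stood at 1503, 1872 and 681 TPM, and Krt18 at 48.6, 48.5 and 18.4 TPM. Epcam and Cldn7 had 0 reads in every library, and Cdh1 had 0, 25 and 21 reads.

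TAM receptors (Tyro3, Axl and Mertk) are receptor tyrosine kinases that bind vitamin K-dependent ligands, Gas6 and protein S, which in turn bind phosphatidylserine on dying cells. They are known for the clearance of dying cells and for damping innate immune signals, and Axl is widely studied in invasive carcinoma. PDGF dimers act mostly on mesenchymal cells: PDGF-A chains bind the alpha receptor, while PDGF-B chains bind both receptors. Ngfr encodes p75NTR, a member of the tumour necrosis factor receptor superfamily that binds all neurotrophins and their precursors and lacks a kinase domain.

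The promoters of the 4 genes with the largest differences in plain TPM ratio between JC-M3 and JC-P are shown first, because these transcripts were at or near the counting limit in 1 or more libraries (Pros1, Mertk) or more than 10-fold lower in JC-M3 than in JC-P (Ngfr, Gas6). Each is the 250 bases before the RefSeq start site (GRCm38.p6; 213 bases for Ngfr, up to the start GENCODE gives), 5′ to 3′ on the gene's own strand, and capitals mark every match to the GC box GGGCGG on either strand. Ngfr is on the minus strand of chromosome 11 (95587736 to 95587948), Gas6 on the minus strand of chromosome 8 (13494536 to 13494785), Pros1 on the plus strand of chromosome 16 (62854057 to 62854306) and Mertk on the plus strand of chromosome 2 (128698665 to 128698914).
Ngfr: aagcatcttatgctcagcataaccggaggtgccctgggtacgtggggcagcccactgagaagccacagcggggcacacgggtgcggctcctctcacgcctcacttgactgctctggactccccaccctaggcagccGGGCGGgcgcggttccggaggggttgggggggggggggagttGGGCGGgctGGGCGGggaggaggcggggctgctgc
Gas6: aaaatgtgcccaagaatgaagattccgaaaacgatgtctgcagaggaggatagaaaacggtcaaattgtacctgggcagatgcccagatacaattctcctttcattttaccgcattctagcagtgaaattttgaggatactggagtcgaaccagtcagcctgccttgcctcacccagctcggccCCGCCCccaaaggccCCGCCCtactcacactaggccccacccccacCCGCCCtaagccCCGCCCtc
Pros1: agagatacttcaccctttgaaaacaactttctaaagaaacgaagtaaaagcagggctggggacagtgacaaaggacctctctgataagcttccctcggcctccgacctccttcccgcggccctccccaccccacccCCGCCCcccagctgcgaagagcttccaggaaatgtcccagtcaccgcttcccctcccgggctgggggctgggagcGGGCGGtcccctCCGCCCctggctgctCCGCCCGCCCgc
Mertk: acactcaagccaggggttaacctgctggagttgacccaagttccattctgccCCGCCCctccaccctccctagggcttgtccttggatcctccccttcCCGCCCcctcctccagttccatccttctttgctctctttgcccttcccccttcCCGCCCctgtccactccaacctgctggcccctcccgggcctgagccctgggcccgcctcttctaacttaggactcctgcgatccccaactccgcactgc

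The printed stretches held 3 GC boxes in Ngfr, 4 in Gas6, 5 in Pros1 and 3 in Mertk. Promoter windows of 300 bases, which reach 50 bases past the start, were matched for 8 of the 10 genes (9 windows, as Pdgfa has 2). Pdgfb was not matched, and windows on chromosome 18, where Pdgfrb lies, were left out of the search. Of these 9 windows 8 held a GC box, all but that of Pdgfra, against 35.7% of the 32851 promoter windows in the table. In the same windows the AP-1 letters TGANTCA (7.81% of all promoters), the TATA box TATAAA (13.6%) and CCAAT (37.4%) were not found in any of the 9, and GGAATG, the core bound by TEAD factors, was found once, in Axl (14.7% of all promoters). Matches were sought on both strands and describe letters only. The Ngfr window was 71.7% G and C, more than 92.6% of all promoters, and the Pdgfra window 51.0%. GC boxes thus stood before Pros1, which was higher in JC-M3, and before Gas6 and Ngfr, which were lower there.

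Of the 10 genes, 9 averaged 1 TPM or more across the libraries and are called measured. Mertk, at a mean below that, is given by its reads. Pros1 passed only through its level in JC-M3, so it had to differ. The terms higher and lower are used of ratios of TPM + 0.5 that reach 2-fold, and log2 ratios below are on that scale, which understates differences of low genes. Plain folds and their intervals are ratios of TPM.

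Between JC-WT and JC-P, none of the 9 measured genes reached 2-fold in either direction, where 4.76% of 14527 measured features were at least 2-fold higher and 2.33% lower. Between JC-P and JC-M3, Pros1 and Pdgfb were higher (2 of 9, against 3.82% of all measured features) and Gas6, Pdgfra and Ngfr lower (3 of 9, against 5.38%). For JC-M3 over JC-WT, Pros1 and Pdgfb were higher (6.14% of all) and Gas6 and Ngfr lower (5.27%). Because the genes were chosen with such ratios in view, nothing is read from these shares. Any 2 of these comparisons share a library. In the order in which these comparisons were just given, the median log2 ratio of the 9 genes was -0.01, -0.05 and 0.30, beside medians of 0.01, -0.01 and 0.00 over all measured features. By counting error alone, the interval lay above no change for Gas6 and Pdgfra (2 of 9, against 27.1% of features with an interval) and below it for Tyro3 (1 of 9, against 28.2%) in JC-P over JC-WT. In JC-M3 over JC-P it lay above for Pros1, Axl, Pdgfb and Pdgfrb (4 of 9, against 29.4%) and below for Gas6, Tyro3, Pdgfra and Ngfr (4 of 9, against 30%). The same genes lay on the same sides in JC-M3 over JC-WT (29.4% above and 30.6% below among all features). The differences thus went both ways within the set.

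**Figure D1:**
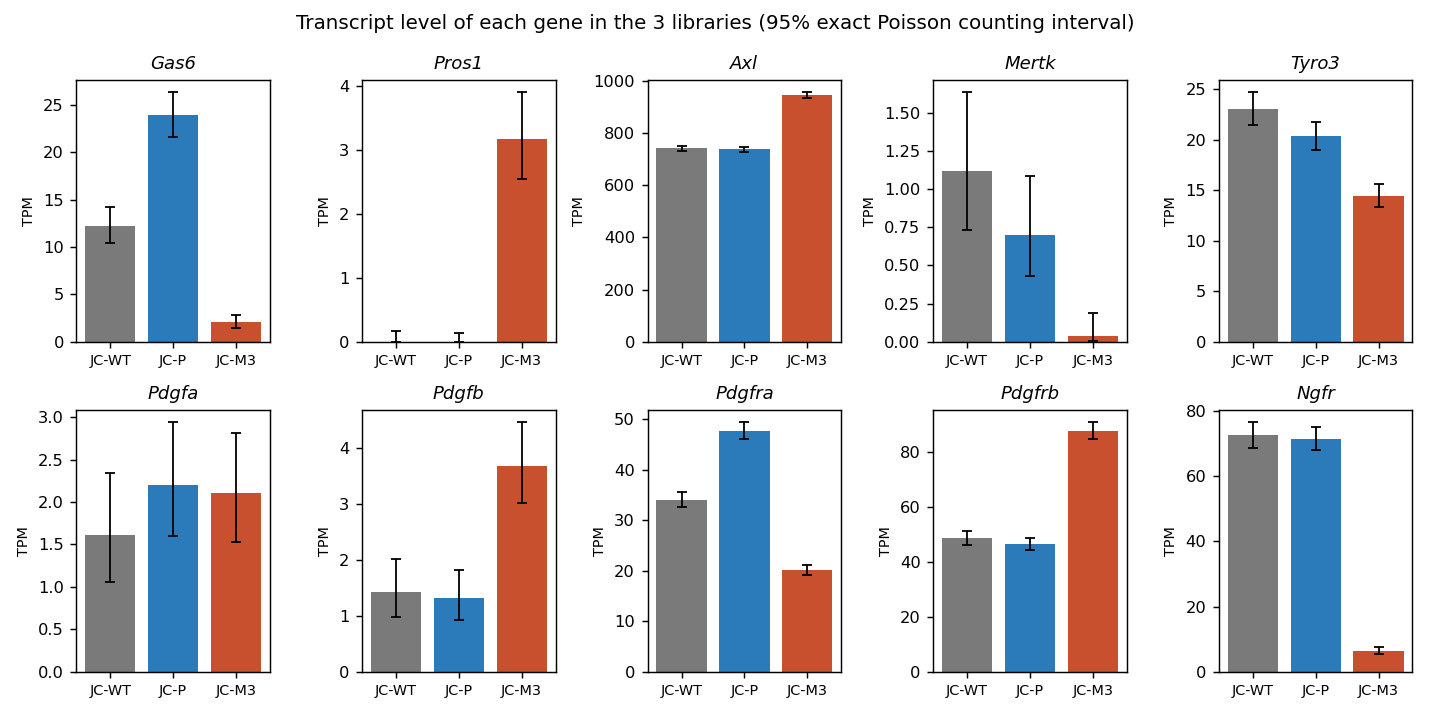
Transcript level in TPM (y axis, linear from 0, one scale per panel) of each of the 10 genes in the 3 libraries (x axis; grey JC-WT, blue JC-P, red JC-M3). Bars are single libraries and whiskers are 95% exact Poisson intervals of the reads; Ngfr is at 71.5 TPM (JC-P) and 6.39 TPM (JC-M3), while Axl lies between 739 and 947 TPM in all libraries.

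Gas6, the TAM ligand with the broadest receptor range, was recorded at 12.2 TPM (JC-WT), 23.9 TPM (JC-P) and 2.06 TPM (JC-M3), from 167, 400 and 36 reads. Its level was thus highest in the fat pad tumour cells and lowest in the lung-selected cells. JC-P exceeded JC-WT by 1.96-fold (1.63 to 2.36), a log2 ratio of 0.94 that lies just under the 2-fold line. JC-M3 lay 11.6-fold (8.24 to 16.8) under JC-P and 5.93-fold (4.12 to 8.75) under JC-WT, with log2 ratios of -3.25 and -2.31. In a bulk library a smaller share of cells with the transcript and less transcript per cell cannot be told apart, here and for every gene below. Gas6 lies on chromosome 8 from 13465374 to 13494490 (GRCm38, GENCODE M21) and shares 34 exon bases with Tmem255b on the other strand, which stood at 0.193 TPM or less in every library.

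Pros1, which encodes protein S, an anticoagulant cofactor as well as a ligand of Tyro3 and Mertk, had 0, 0 and 89 reads. That is 3.17 TPM in JC-M3, with a counting interval of 2.55 to 3.91 TPM. Counts of 0 allow up to 0.168 TPM (JC-WT) and 0.137 TPM (JC-P) at the upper limit of their intervals. Against a floor of 3 reads per library, JC-M3 was at least 28.4-fold higher than JC-P and at least 23.2-fold higher than JC-WT. These folds leave out the counting error of JC-M3, and the lower interval limits are 22.6-fold and 18.5-fold. Gas6 made up all ligand TPM in JC-WT and JC-P, and 39.4% (30.0 to 49.1) in JC-M3, where Pros1 made up 60.6% (50.9 to 70.0). The sum of both ligands was 12.2, 23.9 and 5.23 TPM, so the total was lowest in JC-M3 with Pros1 included.

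Axl, the receptor with the highest affinity for Gas6, was by far the most abundant of the 10 transcripts. It stood at 742, 739 and 947 TPM, ranks 158, 148 and 111 among the 14527 measured features. JC-WT and JC-P did not differ beyond counting error (0.995-fold, 0.977 to 1.01). JC-M3 was 1.28-fold (1.26 to 1.30) above JC-P, a difference beyond counting error and well under 2-fold. Axl transcripts outnumbered Gas6 transcripts per length 60.8-fold (52.2 to 71.2) in JC-WT, 30.9-fold (28.0 to 34.2) in JC-P and 460-fold (332 to 657) in JC-M3. The ratio of receptor to ligand was thus highest in the lung-selected cells.

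Tyro3, the TAM receptor best known from the nervous system, stood at 23.0, 20.3 and 14.4 TPM. JC-P was 0.883-fold (0.799 to 0.975) of JC-WT. JC-M3 lay 1.41-fold (1.27 to 1.56) under JC-P and 1.59-fold (1.43 to 1.77) under JC-WT, neither reaching 2-fold. Measured genes of chromosome 2, which carries Tyro3 and Mertk, had a median log2 ratio of -0.22 for JC-M3 over JC-P. With chromosome medians subtracted, the log2 ratio of Tyro3 was -0.26 in place of -0.48. Mertk, best known from macrophages and retinal pigment epithelium, had 26, 20 and 1 reads. These are 1.12, 0.702 and 0.0336 TPM. JC-M3 over JC-P was a ratio of 0.0479 with a counting interval of 0.00116 to 0.299. Among TAM receptor transcripts, Axl took 96.9%, 97.2% and 98.5%. Tyro3 took 3.00% in JC-WT and 2.67% in JC-P, and its counting interval in JC-M3 ran from 1.39% to 1.62%. TAM receptor transcripts were thus nearly all Axl in every library.

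Macrophages are a known source of Mertk and Gas6. Of 10 macrophage markers, Mertk among them, 5 had 0 reads in each of the 3 libraries (Ptprc, Adgre1, Itgam, C1qa and C1qb). Csf1r had 17, 11 and 8 reads and Lyz2 4, 2 and 16 reads. The 2 measured markers were Cd68 and Cd14, and the summed level of the list ran from 50.3 TPM in JC-P to 72.1 TPM in JC-M3. Endothelial cells also express Gas6, and the summed level of 10 endothelial markers had the same order as Gas6, at 8.02, 35.9 and 3.11 TPM, with 2 of 10 measured. Those were Plvap, at 7.60, 17.8 and 2.71 TPM, and Cdh5, at 0.0887, 17.7 and 0.104 TPM, while the defining receptor gene Kdr and the tight junction gene Cldn5 had 0 reads in every library. Cdh5 passed the filter only through its level in JC-P. Pecam1 had 5, 10 and 10 reads and Vwf 5, 1 and 3 reads. Tek had 1, 2 and 0 reads, Tie1 0, 0 and 1, and Erg and Emcn 1, 0 and 0 each. The part of either cell type in the Gas6 and Mertk values was not tested.

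**Figure D2:**
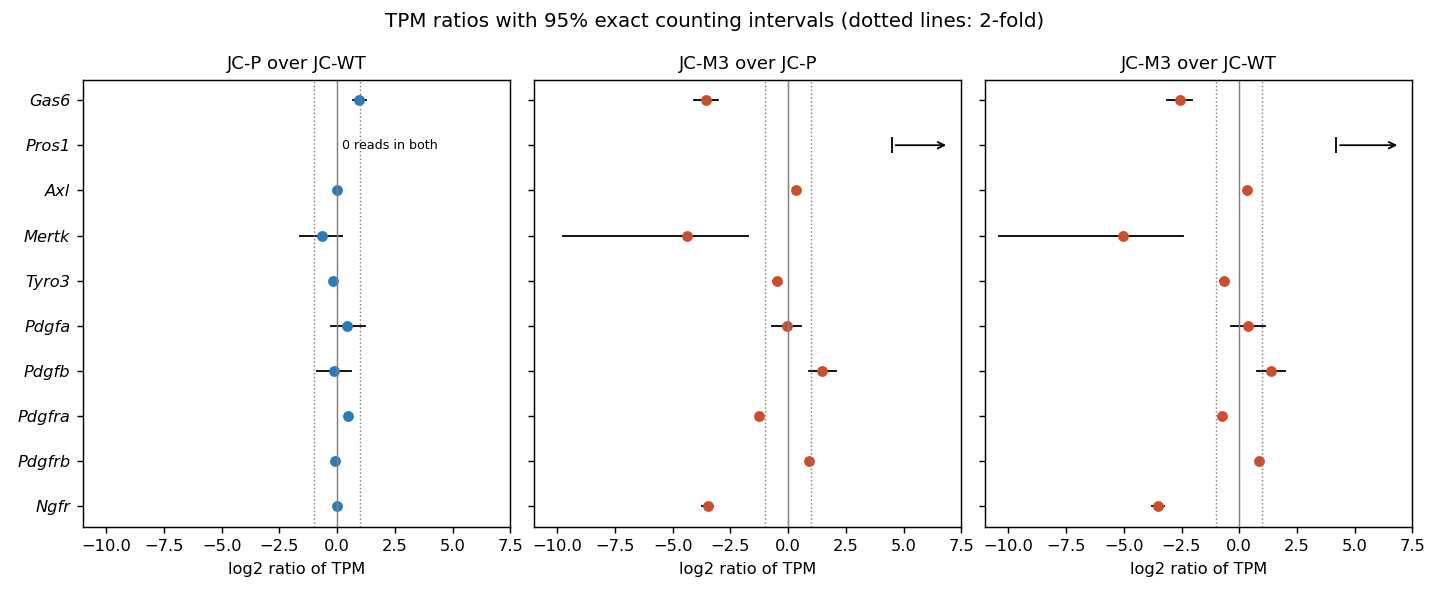
Log2 ratios of plain TPM (x axis) for each gene (y axis) in the 3 comparisons, with 95% exact counting intervals as lines and 2-fold as dotted lines. Arrows mark Pros1, with 0 reads in the reference library, from its lower limit. In the left panel no gene lies past 2-fold. In both other panels Gas6, Mertk and Ngfr lie past it to the left and Pros1 and Pdgfb to the right. Pdgfra lies past it to the left for JC-M3 over JC-P only.

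Both PDGF ligand genes were low in all libraries. Pdgfa stood at 1.61, 2.20 and 2.10 TPM, from 27, 45 and 45 reads, and its intervals overlapped between all libraries. Of 50-base windows of Pdgfa transcripts, 21.3% also occur in 6330403L08Rik, which shares 813 exon bases with it on the other strand. The strand setting of the counting is not given in the sources used here, so part of the Pdgfa reads could belong to that gene (2.83, 3.58 and 1.98 TPM). Pdgfb stood at 1.43, 1.32 and 3.68 TPM, from 32, 36 and 105 reads. JC-M3 was above the other libraries, 2.79-fold (1.90 to 4.20) over JC-P and 2.57-fold (1.71 to 3.94) over JC-WT, with log2 ratios of 1.20 and 1.11. At such low levels the call depends on the pseudocount: with a pseudocount of 2 the log2 ratios were 0.78 and 0.73, under 2-fold, and with chromosome medians subtracted that over JC-P was 0.99. Platelets store PDGF-B. Of 5 platelet and megakaryocyte markers 2 were measured, Ppbp (14, 29 and 26 reads) and Itga2b (88, 156 and 94 reads). Pf4, Gp9 and Gp1ba had at most 1 read in any library. The summed level of the list was 5.63, 8.81 and 6.38 TPM. The part of platelets in the Pdgfb values was not tested. The Pdgfb share of the pair was 37.5% (27.3 to 48.7) in JC-P and 63.6% (55.0 to 71.7) in JC-M3.

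The receptors differed in opposite directions. Pdgfra, which marks many fibroblast lineages, stood at 34.1, 47.6 and 20.1 TPM. JC-P lay 1.40-fold (1.32 to 1.48) above JC-WT, and JC-M3 2.37-fold (2.22 to 2.52) under JC-P and 1.69-fold (1.58 to 1.82) under JC-WT. Like Gas6, Pdgfra was highest in JC-P and lowest in JC-M3. Pdgfrb, which marks pericytes and smooth muscle lineages, stood at 48.7, 46.5 and 87.9 TPM. JC-WT and JC-P did not differ beyond counting error (0.955-fold, 0.889 to 1.03), and JC-M3 was 1.89-fold (1.78 to 2.00) above JC-P. That is a log2 ratio of 0.91, just under the 2-fold line.

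The ratio of Pdgfra to Pdgfrb within a library does not depend on how libraries are scaled to each other. It was 0.699 (0.652 to 0.749) in JC-WT, 1.02 (0.964 to 1.09) in JC-P and 0.229 (0.215 to 0.244) in JC-M3. The receptors were thus about level in JC-P, while Pdgfrb made up 81.4% (80.4 to 82.3) of the pair in JC-M3. The summed level of both was 82.8, 94.2 and 108 TPM, so the total differed less than its make-up. Of Pdgfra's 50-base windows, 4.93% occur in other genes. Pdgfra also shares 456 exon bases with Gm42802 on the other strand, which stood at 0.409, 1.67 and 0.320 TPM.

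**Figure D3:**
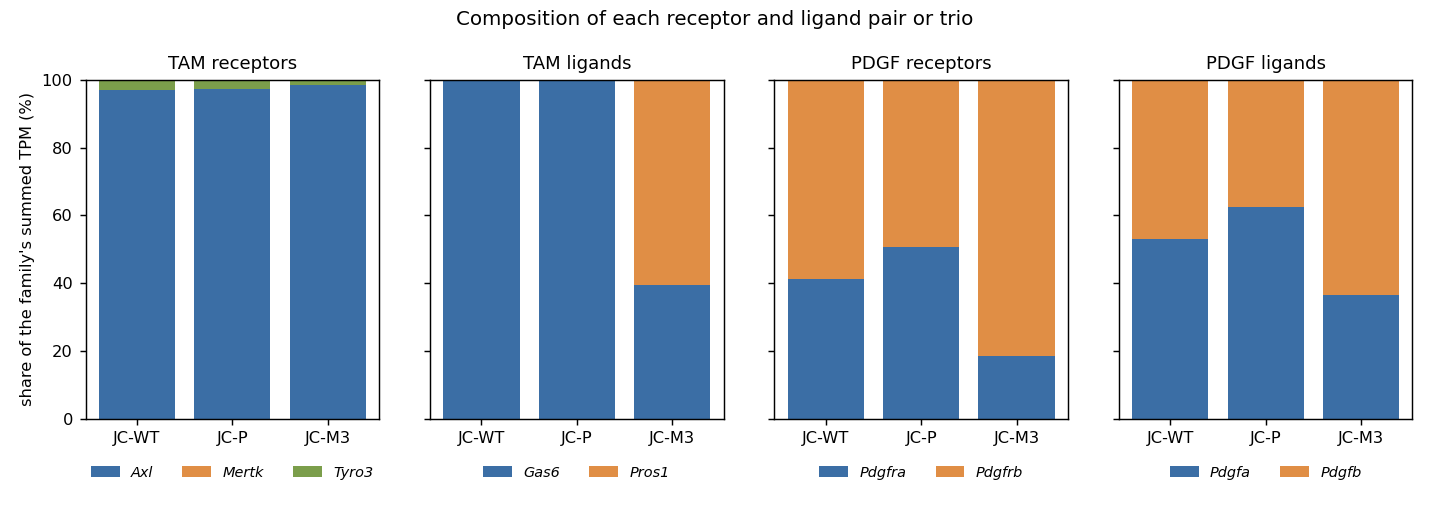
Share of the summed TPM (y axis, percent) taken by each gene within 4 families, in the 3 libraries (x axis). Axl fills nearly all of the TAM receptor bars, whereas Pros1 and Pdgfrb take 60.6% and 81.4% of their pairs in JC-M3.

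Markers of other cell types were read beside these values. Of 10 fibroblast markers 7 were measured, and their summed level was 984, 1045 and 1809 TPM. The surface glycoprotein gene Pdpn took 811, 673 and 804 TPM of it, and the fibrillar collagen gene Col1a1 132, 261 and 949 TPM. Besides Pdgfra, which is on the list, Col3a1 (3.99, 46.0 and 8.76 TPM) and Fap (2, 26 and 10 reads) were highest in JC-P. Dcn (39, 539 and 900 reads) and Col1a2 (17, 54 and 375 reads) were highest in JC-M3, as Col1a1 was. Dpt had 21, 24 and 3 reads, and Lum and Thy1 had 0 reads in every library. Of 10 pericyte and smooth muscle markers 4 were measured, Pdgfrb among them, and their sum was 80.6, 57.1 and 756 TPM. The sum in JC-M3 was mostly Acta2, at 16.5, 2.22 and 642 TPM. Mcam (9.68, 2.00 and 19.8 TPM) and Des (3.67, 5.59 and 6.48 TPM) were also highest in JC-M3, as Pdgfrb was. Rgs5 had 48, 17 and 5 reads, Cspg4, Notch3 and Myh11 had at most 6 reads in any library, and Kcnj8 and Abcc9 had 0 reads in every library. The part of other cells in the receptor values was not tested beyond these levels.

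Ngfr was lower in JC-M3 than in either other library. It stood at 72.6 TPM (JC-WT) and 71.5 TPM (JC-P), above 81.5% and 82.0% of measured features, and at 6.39 TPM in JC-M3, above 27.2%. The reads were 1342, 1620 and 151. JC-WT and JC-P did not differ beyond counting error (0.986-fold, 0.917 to 1.06). JC-M3 lay 11.2-fold (9.47 to 13.3) under JC-P and 11.4-fold (9.59 to 13.5) under JC-WT, with log2 ratios of -3.39 and -3.41. Ngfr thus differed from Gas6 and Pdgfra, which also differed between JC-WT and JC-P beyond counting error. The gene lies on chromosome 11 from 95568818 to 95587735, no annotated gene overlaps it, and 0.854% of its 50-base windows occur elsewhere.

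Ngfr also marks Schwann and neural crest cells, and most other markers of that list were near the counting limit. Foxd3 had 0 reads in every library, and Sox10 had 1, 0 and 0 reads. The summed level of the 9 markers was 78.8, 77.7 and 14.3 TPM. Ngfr made up most of it in JC-WT and JC-P, while in JC-M3 Ngfr gave 6.39 TPM and the cadherin gene Cdh19 6.13 TPM.

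Genes next to Gas6 and Ngfr were read as well. Within 100 kb, 2 measured genes flank each. Tfdp1 and Rasa3, beside Gas6, had log2 ratios of 0.28 and 0.57 for JC-M3 over JC-P. Spop and Phb1, beside Ngfr, had -0.28 and 0.12. None of the 4 reached 2-fold in any comparison.

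For genes of comparable pattern, profiles of log2(TPM + 0.5) over the 3 libraries were centred and compared by Euclidean distance among 8818 genes that averaged 10 TPM or more. With 3 points, such a distance only describes shape. Nearest to Gas6 were Gsta4, a glutathione transferase gene (distance 0.123, at 243, 525 and 50.7 TPM), and Padi1, a peptidylarginine deiminase gene (0.132, at 25.4, 50.8 and 5.40 TPM), followed by Ly6c1 (0.318). Nearest to Ngfr were the stromelysin gene Mmp10 (0.257, at 39.7, 32.3 and 3.47 TPM), Prl2c3 (0.352) and Gpr137b (0.414, at 84.7, 90.6 and 11.3 TPM). Of the 50-base windows of Padi1, Ly6c1, Prl2c3 and Gpr137b, 30.3%, 32.8%, 60.0% and 28.6% occur in other genes, so their levels are uncertain. Nearest to Pdgfra were Dnm1, which encodes dynamin 1 (0.0369, at 113, 153 and 67.2 TPM), Ankra2 (0.0398) and the Igf2r antisense RNA Airn (0.0540). None of the 50-base windows of Airn occurs in annotated transcripts of other genes. If strand was not used, its reads could still include unspliced Igf2r RNA.

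The partner genes of these pathways were read from 8 lists chosen by role. On the scale of TPM + 0.5, 0 of 86 distinct measured genes reached 2-fold between JC-WT and JC-P. Among all measured features 4.76% were higher and 2.33% lower in JC-P. For JC-M3 over JC-P 3 were higher and 6 lower, and for JC-M3 over JC-WT 5 were higher and 8 lower, beside the shares of all features given above. Their median log2 ratios were 0.02, -0.02 and -0.01 in the order of the comparisons, near those of all measured features. In plain TPM some low partners did pass 2-fold between JC-WT and JC-P. Gab2 was 2.04-fold (1.61 to 2.60) higher in JC-P, while Sorcs2 was 2.33-fold (1.71 to 3.21) and Rtn4r 2.23-fold (1.29 to 3.93) lower.

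Most genes that mature and bind the TAM ligands lay within 2-fold. Of 6 measured genes 0 were higher and 2 lower for JC-M3 over JC-P. Ggcx, the gamma-glutamyl carboxylase that modifies Gas6 and protein S, stood at 28.5, 27.6 and 29.6 TPM, and Vkorc1, which recycles vitamin K, at 9.98, 11.2 and 11.5 TPM. Lgals3, a galectin reported as a Mertk ligand, stood at 733, 439 and 189 TPM, so that JC-M3 lay 2.33-fold (2.22 to 2.45) under JC-P. Tfpi, a coagulation inhibitor that uses protein S as a cofactor, was also lower, at 3.38, 2.20 and 0.614 TPM. It is named outside the rule for naming genes, after its values were seen.

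Receptor shedding, feedback and effector genes all lay within 2-fold in each comparison (11 of 11 measured). The sheddase genes Adam10 and Adam17 stood at 86.9, 124 and 105 TPM and at 31.4, 37.1 and 29.2 TPM. Socs1, a feedback inhibitor induced by TAM signalling in immune cells, was at 17.4, 23.9 and 22.1 TPM, and Socs3 at 57.2, 40.3 and 76.5 TPM. Socs3 had the highest log2 ratio of JC-M3 over JC-P among them, at 0.92.

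Among other genes of phosphatidylserine recognition and engulfment, 14 of 20 were measured. For JC-M3 over JC-P 1 was higher and 2 lower. The engulfment receptor gene Megf10 stood at 7.97, 9.25 and 0.642 TPM, from 330, 469 and 34 reads, so that JC-M3 over JC-P was a ratio of 0.0694 (0.0475 to 0.0984). JC-P over JC-WT was 1.16-fold (1.01 to 1.34), so Megf10, like Ngfr, was low in JC-M3 alone. The lipid exporter gene Abca1 was at 6.26, 9.21 and 2.90 TPM. Itgb5, whose integrin binds the bridging protein Mfge8, was at 28.9, 32.4 and 98.5 TPM, 3.04-fold (2.80 to 3.30) higher in JC-M3 than in JC-P. Mfge8 itself stood at 115, 141 and 114 TPM. Lrp1, an endocytic receptor that also associates with Pdgfrb, was at 138, 228 and 374 TPM, with a log2 ratio of 1.44 for JC-M3 over JC-WT.

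Of other PDGF ligands and ligand-processing genes 8 of 12 were measured, and for JC-M3 over JC-P 1 was higher and 0 lower. Pdgfc was the most abundant PDGF ligand transcript, at 8.90, 11.7 and 14.5 TPM, above Pdgfa and Pdgfb in each library. Pdgfd had 0 reads in all 3 libraries. Plat and Plau encode the proteases that activate PDGF-C and PDGF-D. Plat stood at 23.8, 31.2 and 43.9 TPM. Plau stood at 326, 183 and 114 TPM, with a log2 ratio of -1.51 for JC-M3 over JC-WT. Pdgfrl, a receptor-like gene without a kinase, was the gene past 2-fold, at 1.37, 1.17 and 3.54 TPM, and is named outside the rule.

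Of 25 measured PDGF receptor partners, adaptors and effectors, all lay within 2-fold for JC-M3 over JC-P. For JC-M3 over JC-WT 2 were higher, Lrp1 and the adaptor gene Gab2 (2.99, 6.09 and 8.72 TPM), and 2 lower. The lower ones were the phospholipase gene Plcg1 (73.7, 54.8 and 33.4 TPM) and Rasa1, a GTPase-activating protein gene (45.9, 36.2 and 22.1 TPM). The proteins of Plcg1 and Rasa1 bind phosphorylated PDGF receptors. All 4 genes had their JC-P level between those of the other libraries.

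Among neurotrophins and Trk receptors, Bdnf, the brain-derived neurotrophic factor gene, was at 22.3, 19.2 and 19.4 TPM. The kinase receptor genes Ntrk2 and Ntrk3 were near the counting limit, with 12, 2 and 2 reads and with 2, 0 and 0 reads. Of the 7 listed genes 3 were measured, and 0 of them reached 2-fold in any comparison.

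Of 19 measured p75 coreceptors and intracellular partners, 1 was higher and 2 were lower for JC-M3 over JC-P, all 3 at low levels and named outside the rule. Sort1, which encodes sortilin, the coreceptor for proneurotrophins, stood at 1.38, 2.15 and 6.70 TPM, 3.12-fold (2.50 to 3.91) higher in JC-M3. Its relative Sorcs2 was at 2.58, 1.11 and 0.149 TPM, and the Nogo receptor gene Rtn4r had 40, 22 and 2 reads. The ratio of Rtn4r for JC-M3 over JC-P was 0.0871 with a counting interval of 0.00993 to 0.354. Among cytoplasmic partners and processing genes, Maged1 was at 375, 447 and 464 TPM, Bex3 at 579, 662 and 730 TPM, and the gamma-secretase gene Ncstn at 122, 139 and 159 TPM. In plain TPM the JC-P level of Rtn4r was 0.449 (0.254 to 0.774) of its JC-WT level. That ratio was 0.428 (0.312 to 0.584) for Sorcs2 and 1.56 (1.12 to 2.20) for Sort1. The levels of Rtn4r, Sorcs2 and Sort1 were thus not even between those libraries as that of Ngfr was.

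**Figure D4:**
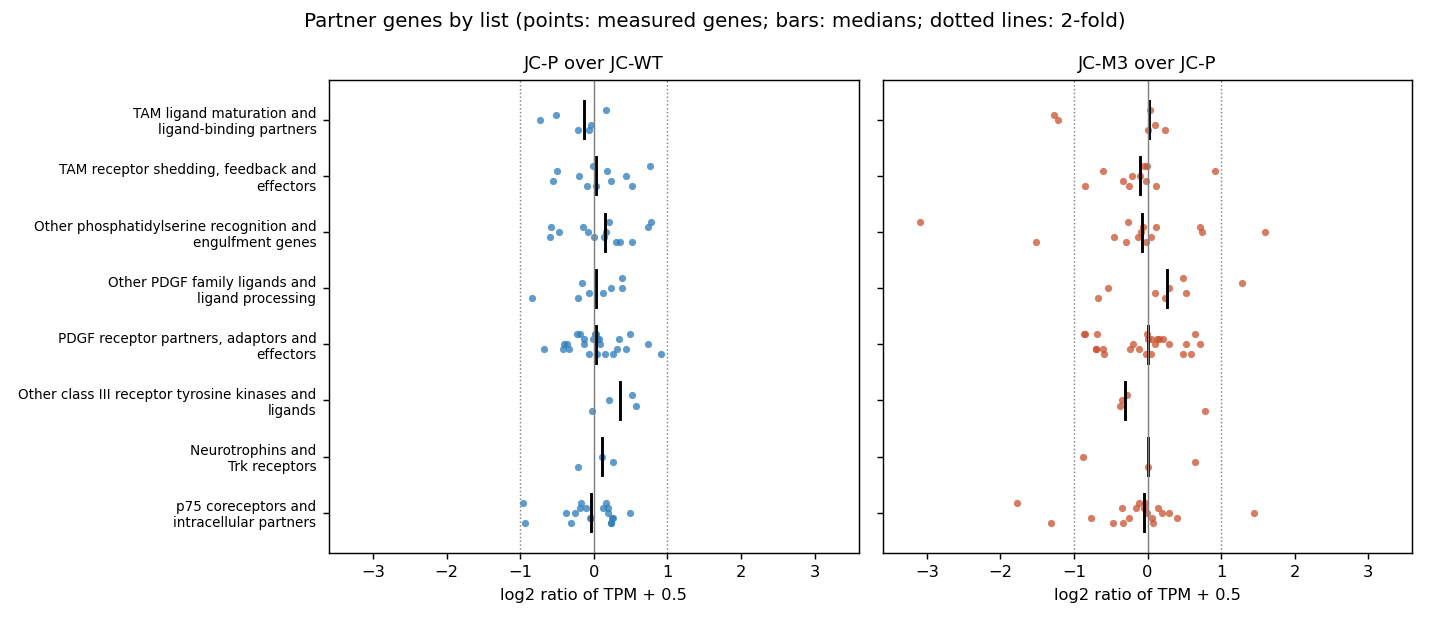
Log2 ratios of TPM + 0.5 (x axis) of the measured partner genes in 8 lists (y axis). The left panel (blue) is JC-P over JC-WT and the right panel (red) JC-M3 over JC-P. Each point is a gene of a list, black bars are list medians and dotted lines mark 2-fold. Furin, Lrp1, Pik3r1 and Adam17 are shared between lists and are drawn once in each. All 86 genes lie within 2-fold on the left, and on the right 3 lie above and 6 below.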

How the data were processed

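The deposited table holds TPM, which the authors made from reads per gene, gene length and library scaling, per the file headers. FastQC 0.11.9, STAR 2.7.9a and featureCounts with builds mm10 and GRCm38 are named in the submitters' processing notes. For annotation release and strandedness, what was used is not given in the sources used here. TPM times merged exon length (GENCODE M21) fell on whole multiples of a fixed step, within 0.01 of a read, for 98.4% to 98.5% of expressed features. Dividing by it gave 17707519 (JC-WT), 21666127 (JC-P) and 22807660 (JC-M3) reads.

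Ratios took log2(TPM + 0.5) among 14527 features averaging 1 TPM or more, called at 2-fold. Intervals are 95% exact (Poisson for levels, Clopper-Pearson for ratios and shares), and reads are not independent molecules. The members, the partner and marker lists and the naming rule were chosen with earlier results of these data known. The rule names all members and the 3 nearest profiles. It also names up to 4 partners per list with a mean of at least 5 TPM that pass 2-fold in any comparison. Other partners named in the text, among them Ggcx, Adam10, Pdgfc, Bdnf, Maged1 and Csf1, lie outside this rule. Alternatives covered scaling, pseudocount, threshold, filter, mitochondrial features, chromosome medians and repeated symbols. Some listed genes are not reported here by name. Promoters are from RefSeq (GRCm38.p6). Calls and intervals were tried on simulated data with counting error only, which hold no variation between cultures, animals or libraries. Tools were scipy 1.17.1, pandas 2.3.3, numpy 2.4.6 and matplotlib 3.10.9 under Python 3.11.15.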

Additional observations from a re-analysis of the deposited data

How the results depend on the processing

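With 1 library per population, no replicate could be left out. No paired analysis was possible because each group has a single library. No value changed sign among ratios past 2-fold. Ngfr, Gas6 and Pros1 stayed past 2-fold for JC-M3 over both other libraries under all 7 alternatives of the ratios (Ngfr over JC-P from -3.47 to -3.13, Gas6 from -3.47 to -2.67, Pros1 from 1.37 to 5.03 on the log2 scale), as did Pdgfra for JC-M3 over JC-P (-1.24 to -1.17). Pros1 had 0 reads in JC-WT and JC-P and passed the filter through JC-M3 alone, so its staying past 2-fold was no check. Gas6 in JC-P over JC-WT reached 1.00 with chromosome medians subtracted. No symbol was repeated, so summing rows changed nothing. Of the genes described, the number higher in JC-M3 than in JC-P, and than in JC-WT, was 1 with pseudocount 2 or a 3-fold threshold and 0 with a mean of at least 10 TPM, which leaves out Pros1 and Pdgfb. With a 1.5-fold threshold 1 was higher in JC-P than in JC-WT and 4 were lower in JC-M3 than in JC-WT. Counts over all features, higher and lower in turn, followed the settings. For JC-P over JC-WT they were 361 and 173 with pseudocount 2, 1737 and 1003 at 1.5-fold, 283 and 132 at 3-fold, 1288 and 647 without a filter and 156 and 63 with a mean of at least 10 TPM. For JC-M3 over JC-P they were 328 and 443, 1456 and 1934, 219 and 306, 1024 and 1288, and 154 and 269 in the same order. For JC-M3 over JC-WT they were 522 and 471, 2039 and 1813, 382 and 319, 1544 and 1147, and 247 and 293. Without a filter more features were tested, and with the stricter one fewer. A lower threshold can only add calls, and a higher threshold or a larger pseudocount can only remove them. For other settings the cause of any difference was not tested. The depth leaves Mertk, Pdgfa and Pdgfb with wide intervals.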

Other observations

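Other class III receptor tyrosine kinases, the family of the PDGF receptors, were at or near the counting limit. Kit and Flt3 had 0 reads in every library, and Csf1r had 17, 11 and 8 reads. Their ligands were present. Csf1, the macrophage growth factor gene, stood at 316, 310.4 and 532 TPM, with JC-M3 1.71-fold (1.67 to 1.75) above JC-P. Kitl stood at 67.4, 96.5 and 79.7 TPM, Il34 at 91.1, 105 and 82.4 TPM and Flt3l at 3.89, 6.04 and 4.55 TPM. All 4 measured genes of this list lay within 2-fold in every comparison.

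Within the list of Schwann and neural crest markers, 2 genes besides Ngfr were measured, named here after their values were seen. Cdh19, a cadherin gene of Schwann cell precursors, had 0, 0 and 180 reads (6.13 TPM in the lung-selected cells). JC-M3 was at least 57.5-fold higher than JC-P against a floor of 3 reads in JC-P, and the lower limit of the interval was 46.3-fold. S100b had 43, 53 and 8 reads, 6.92-fold (3.27 to 16.8) lower in JC-M3 than in JC-P. Within 1 marker list, JC-M3 was thus higher in Cdh19 and lower in Ngfr and S100b. Cdh19 counted as measured only through its level in JC-M3, so it had to differ.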
